A study of Mus musculus with 7 samples.

Results

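The genes described here encode NF-κB, a family of transcription factors, and the proteins that restrain it. They were 5 subunits (*Nfkb1*, *Nfkb2*, *Rel*, *Rela*, and *Relb*) and 5 inhibitors (*Nfkbia*, *Nfkbie*, *Nfkbid*, *Bcl3*, and *Tnfaip3*), picked by symbol from the 55367 genes of the counts table. All 10 were found, and all 10 were among the 12623 genes with enough counts to be tested. CD8+ T cells were sorted from spleens of Foxp3 YFP/cre mice labelled healthy, a strain in which the *Foxp3* gene of regulatory T cells carries YFP and Cre, so every library shares this allele. The cells were cultured for 48 h with small extracellular vesicles (sEV), which cells release and which carry protein and RNA. HCME-sEVs, from healthy spleens, were given to the cells of 4 libraries, and LME-sEVs, from spleens of leukemic Eμ-*TCL1* mice, to those of 3 libraries. These group sizes follow the sample labels, and a legend of the study gives them the other way round. In Eμ-*TCL1* mice the *TCL1* oncogene is driven in B cells by an immunoglobulin enhancer, and vesicles of a whole spleen come from several cell types. The labels give 100 µg/ml of sEVs in both groups, whereas the study's methods describe the amount natural to each spleen, together with anti-CD3, anti-CD28, and IL2 in the CD8+ cultures. No library without vesicles was analysed here, and the age of the mice is not given in the sources used here.

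NF-κB proteins bind DNA in pairs. *Rela*, *Relb*, and *Rel* encode the subunits that carry an activation domain, and *Nfkb1* and *Nfkb2* encode long precursors that are trimmed into the DNA-binding partners p50 and p52. In resting cells IκB proteins, such as the products of *Nfkbia* (IκBα) and *Nfkbie* (IκBε), hold the pairs in the cytoplasm. In T cells, the antigen receptor and CD28 signal to the IKK kinases, which mark IκB for destruction and let NF-κB enter the nucleus. *Nfkbid* and *Bcl3* encode nuclear members of the IκB family, which can restrain or assist transcription, and *Tnfaip3* encodes A20, an enzyme that edits ubiquitin chains and ends the signal. Several of these inhibitor genes are themselves turned on by NF-κB. Entry into the nucleus is controlled on proteins, which counts of RNA do not measure.

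Promoter sequence was examined because NF-κB genes are known to be read by NF-κB itself, through the κB site, a stretch of 10 bases. RefSeq promoters of GRCm38.p6, from 250 bases before to 50 bases after a start, were at hand for 8 of the 10 genes, in 13 windows. *Nfkb1* and *Relb* were without an entry. The κB consensus, searched on both strands, was found in 9 of the 13 windows (69.2%), from 7 of the 8 genes. Of all 32851 windows searched, which do not cover every chromosome, 4.51% held it. *Rela* was the gene without a match in its window. A related form, GGGNNTTTCC, also searched on both strands, was found in 6 of the 13 windows, from 4 of the 8 genes, against 1.63% of all windows. A site can match both forms, and neighbouring matches can overlap. These matches describe letters and do not show binding in these cells.
The 5 stretches of 60 bases below are shown because they carry, upstream of a start, the letters through which such genes can be read by NF-κB. Each is written on the gene's own strand, with matches to either form on either strand in capitals. Matches of *Nfkbid* lay further upstream and that of *Bcl3* just after the start, and these are not shown.
*Nfkb2*, chr19:46304677-46304736, plus strand: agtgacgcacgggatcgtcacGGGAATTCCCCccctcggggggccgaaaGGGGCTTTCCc
*Rel*, chr11:23771026-23771085, minus strand: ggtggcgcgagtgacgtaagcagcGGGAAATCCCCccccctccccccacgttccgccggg
*Nfkbia*, chr12:55492648-55492707, minus strand: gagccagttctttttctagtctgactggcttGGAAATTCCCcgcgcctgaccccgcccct
*Nfkbie*, chr17:45555569-45555628, plus strand: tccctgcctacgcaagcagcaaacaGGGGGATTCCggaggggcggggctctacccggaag
*Tnfaip3*, chr10:19015411-19015470, minus strand: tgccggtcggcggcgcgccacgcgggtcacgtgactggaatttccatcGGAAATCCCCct
*Nfkb2* carried capitals at 2 places of its stretch, and each of the other genes shown carried them at a single place.

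Totals per library lay between 3689831 and 5030522 counts. Sequencing started at transcript 3′ ends and reads were collapsed by molecular identifier, so a count stands for a captured molecule and transcript length does not enter. Levels are given as CPM, which are counts scaled to library size after TMM normalization, a correction for differences in composition. All pairs of libraries within a group differed by more than counting noise (chi-square divided by its degrees of freedom, 2.102 to 5.997), most of all HCME-sEV libraries 1 and 3. CD8+ T cell markers were present in every library, and *Cd4* and *Foxp3* reached at most 3 counts. The 8 CD8+ T cell markers summed to between 2229 and 2428 CPM with HCME-sEVs and between 2499 and 2812 CPM with LME-sEVs, and *Cd3e* and *Cd3g* passed the test as higher. B cell markers summed to between 10.7 and 12.5 CPM and between 10.1 and 12.4 CPM in the same order, and none of the 3 that could be tested passed. *Cd79b* (7 to 22 counts), *Ebf1* (12 to 23 counts), and *Ms4a1* (1 to 7 counts) were found in every library. *Cd79a* was at 0 counts in all but a single library. Myeloid markers summed to between 101 and 138 CPM and between 132 and 175 CPM, of which *Cst3* made up most, and none of the 2 that could be tested passed. Of those with too few counts to test, *Itgam* (0 to 8 counts) averaged 0.058 CPM with HCME-sEVs and 1.53 CPM with LME-sEVs. *Cd14* (0 to 1 counts) averaged 0.19 and 0.09 CPM. Basophil and mast cell markers summed to between 5.54 and 34.7 CPM and between 25.01 and 36.9 CPM, and *Mcpt8* and *Prss34* passed as higher, 2 of 5 tested. These 2 rested on 3 to 71 and 0 to 41 counts. *Cpa3* of the same list averaged 9.18 CPM with HCME-sEVs and 7.67 CPM with LME-sEVs (log2 fold change -0.26, FDR 0.721, edgeR). The part of these markers in the results below was not tested, and in such bulk samples fewer cells of a type and less RNA per cell cannot be told apart. Neither the labels nor the methods say whether replicates came from separate animals, so p-values measure only the spread between these libraries.

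None of the 10 genes passed an FDR of 0.05 in edgeR's quasi-likelihood test, whose p-values were adjusted over all 12623 tested genes. Among all of these, 1131 genes passed (8.96%), of which 473 (3.75%) were higher and 658 (5.21%) lower with LME-sEVs. No member was a DEG, defined by an FDR under 0.05 and a log2 fold change beyond 1, against 162 of the tested genes (1.28%). At an unadjusted p under 0.05 a single member passed, *Nfkbia*, and DESeq2, limma-voom, and edgeR's exact test likewise found 0 members at an FDR of 0.05 and 1 at an unadjusted p under 0.05. The unadjusted count depended on normalization and filter. It was 0 with upper-quartile scaling, library size only, edgeR's own count filter, or a minimum of 5 counts in total. Over all 18 alternatives it lay between 0 and 2. The median log2 fold change of the members, LME-sEVs over HCME-sEVs, was 0.0023, beside 0.0095 for all tested genes. Subunits lay between -0.22 and 0.05 and inhibitors between -0.18 and 0.41. An FDR above the threshold does not show that a level was the same, so the interval of each difference is given below. All 10 unadjusted 95% intervals lay within a log2 fold change of 1 in either direction.

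**Figure D1:**
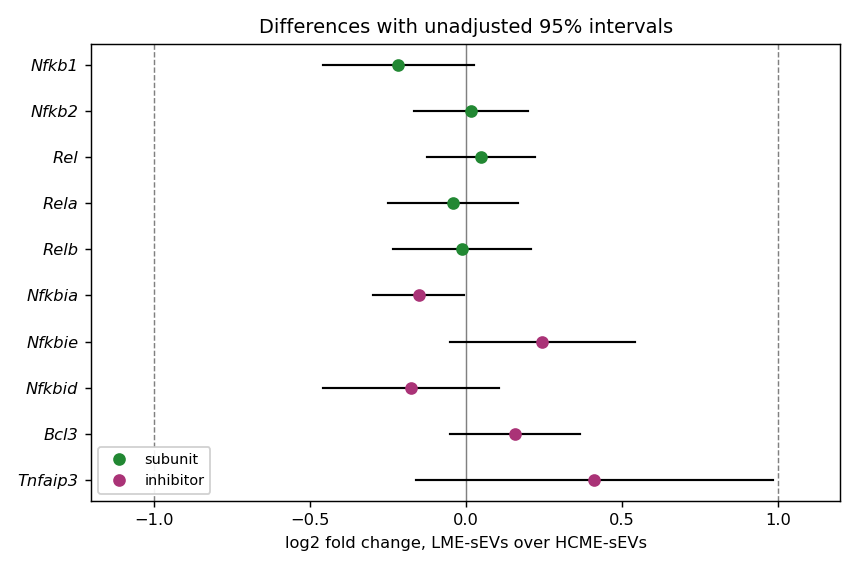
Log2 fold change of each NF-κB subunit (green) and inhibitor (purple), LME-sEVs over HCME-sEVs, on the horizontal axis, with lines for unadjusted 95% intervals from edgeR and dashed lines at a log2 fold change of 1 in either direction. The interval of *Nfkbia* is the only one that leaves out 0, and that of *Tnfaip3*, from -0.16 to 0.98, is the widest.

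The most abundant subunit RNA was that of *Nfkb1*, which encodes the precursor of p50 (chr3:135584655-135691547, minus strand, GRCm38). Its levels in HCME-sEV libraries 1 to 4 were 122, 153, 169, and 119 CPM. LME-sEV libraries 1 to 3 held 108, 113, and 140 CPM. LME-sEV library 3 lay between the HCME-sEV libraries and the other LME-sEV libraries lay below them, so the groups overlapped. Means were 141 ± 24.2 CPM over 4 and 121 ± 17.3 CPM over 3 libraries (SD). The log2 fold change was -0.22 with an SE of 0.12 and an FDR of 0.282 (edgeR), and its 95% interval ran from a fold of 0.728 to 1.02. Among the subunits this interval reached furthest below 1.

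The partner precursor gene *Nfkb2* (chr19:46304320-46312385, plus strand) feeds the noncanonical branch of the pathway, in which p52 pairs with RELB. HCME-sEV libraries held 95.9, 85.4, 100.03, and 100.3 CPM and LME-sEV libraries 93.4, 103, and 93.5 CPM, in order of replicate number. The highest level was in an LME-sEV library and the lowest in an HCME-sEV library, and the groups overlapped. Its log2 fold change was 0.016 (SE 0.088, FDR 0.941, edgeR), with a 95% interval from a fold of 0.891 to 1.149. The last 300 bases of *Nfkb2* overlap *Psd* on the opposite strand, and counts of such a pair cannot be told apart without a stated strand setting. *Psd* itself held between 0 and 3 counts per library.

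*Rel* (chr11:23736847-23770970, minus strand) encodes c-Rel, the subunit known for its role in IL2 transcription in T cells. HCME-sEV libraries held 101, 107, 112, and 117 CPM, and LME-sEV libraries 115, 108, and 115 CPM. All LME-sEV values fell within the HCME-sEV range. This gave a log2 fold change of 0.05 (SE 0.083, FDR 0.786, edgeR), with a 95% interval from a fold of 0.918 to 1.17.

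*Rela* (chr19:5637483-5648130, plus strand) encodes p65, the activating partner of p50 in the canonical pair. Its levels were 76.6, 63.4, 59.7, and 67.7 CPM with HCME-sEVs. With LME-sEVs they were 62.7, 69.4, and 63.2 CPM, all within the HCME-sEV range. HCME-sEV library 1 was the highest of the 7 libraries. The fitted log2 fold change was -0.04 (SE 0.10, FDR 0.862, edgeR), or 0.0064 when scaled by library size only, and the 95% interval ran from a fold of 0.842 to 1.12.

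*Relb* (chr7:19606217-19629438, minus strand), the noncanonical activating subunit, was the lowest of the subunits. Levels were 38.5, 36.7, 36.8, and 40.5 CPM with HCME-sEVs and 38.7, 35.3, and 39.6 CPM with LME-sEVs. The groups overlapped, and the spread within each group was below what counting error alone gives. *Relb* had a log2 fold change of -0.012 (SE 0.11, FDR 0.967, edgeR), or 0.034 when scaled by library size only and 0.0092 by the upper quartile, with a 95% interval from a fold of 0.851 to 1.16. Summed over the 5 subunits, libraries held between 434 and 477 CPM with HCME-sEVs and between 418 and 452 CPM with LME-sEVs. *Nfkb1* made up 31.2% ± 4.33 (SD, n = 4) of this sum with HCME-sEVs and 27.8% ± 2.87 (SD, n = 3) with LME-sEVs, and *Relb* 8.49% ± 0.63 and 8.75% ± 0.52.

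**Figure D2:**
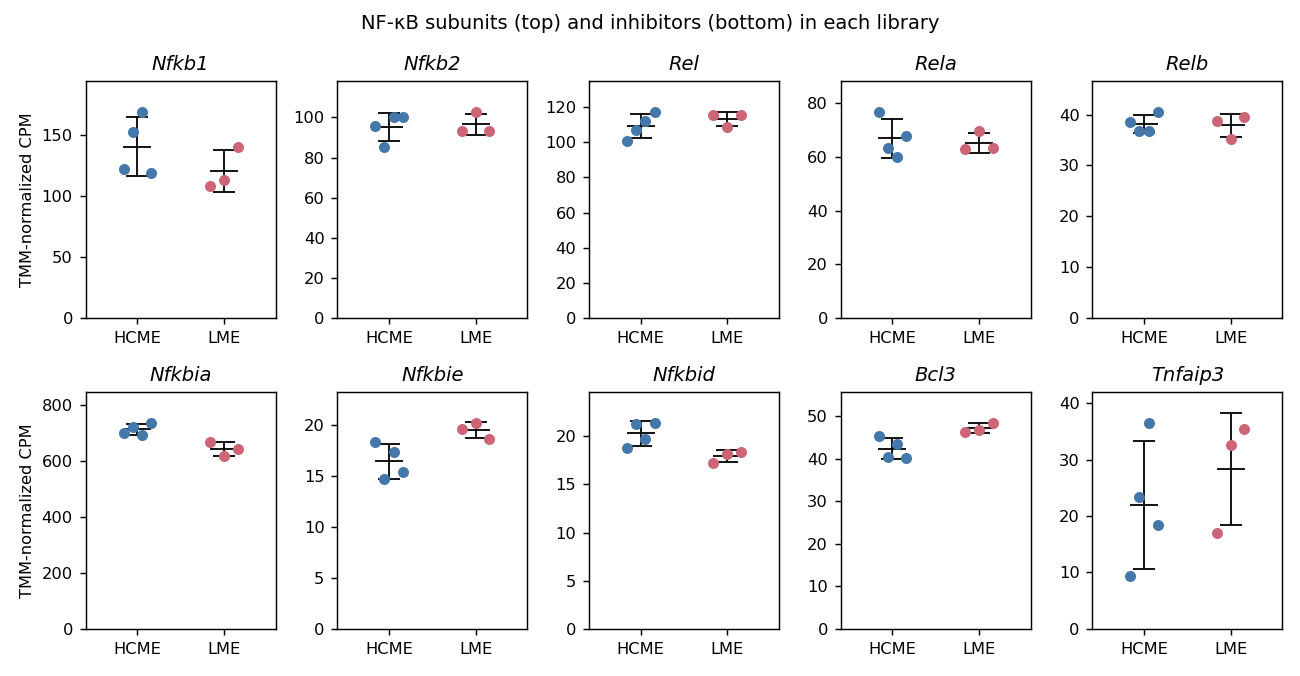
TMM-normalized CPM of the 10 genes, with subunits in the top row and inhibitors in the bottom row. Each point is a library in order of replicate number, HCME-sEVs in blue and LME-sEVs in red, horizontal lines are means with bars of 1 SD, and each vertical axis starts at 0 with its own scale. Groups are apart for *Nfkbia*, *Nfkbie*, *Nfkbid*, and *Bcl3* and overlap for the other genes, and *Tnfaip3* spreads from 9.40 to 36.5 CPM.

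Among the inhibitors, 4 of 5 had groups that did not overlap, with *Nfkbia* and *Nfkbid* lower and *Nfkbie* and *Bcl3* higher in each LME-sEV library. The subunits had 0 of 5. Of all tested genes, 2567 (20.3%) had groups that did not overlap. The 4 differences lay between a log2 fold change of -0.18 and 0.24, and none passed the FDR threshold.

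*Nfkbia* (chr12:55489410-55492647, minus strand), which encodes IκBα, was the most abundant of the 10 genes in every library. HCME-sEV libraries held 699.9, 721, 694, and 737 CPM. LME-sEV libraries held 667, 617, and 641 CPM, each below the lowest HCME-sEV library. The HCME-sEV mean was 713 ± 19.9 CPM (SD, n = 4), the LME-sEV mean was 642 ± 24.96 CPM (SD, n = 3), and the log2 fold change was -0.15 with an SE of 0.070. The unadjusted p was 0.0437 and the FDR 0.204 (edgeR), and the two-sided exact permutation p was 0.0286, the smallest that the 35 splits of 4 and 3 libraries can give. The 95% interval ran from a fold of 0.814 to 0.997. Scaled by library size only, the log2 fold change was -0.107 with an FDR of 0.380 (edgeR). *Nfkbia* rested on 2480 to 3308 counts per library, the largest numbers of any member, and its counting error was 1.86% in the HCME-sEV group.

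*Nfkbie* (chr17:45555703-45563169, plus strand) encodes IκBε, a second cytoplasmic retainer of NF-κB pairs. HCME-sEV libraries held 18.3, 14.7, 17.3, and 15.4 CPM. LME-sEV libraries held 19.6, 20.2, and 18.6 CPM, each above the highest HCME-sEV library. The gap was small, since the nearest libraries of the groups held 18.3 and 18.6 CPM. The log2 fold change was 0.24 (SE 0.14, FDR 0.325, edgeR, exact permutation p 0.0571), with a 95% interval from a fold of 0.965 to 1.45. These levels rested on 58 to 96 counts per library.

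*Nfkbid* (chr7:30421732-30428746, plus strand) encodes IκBNS, a nuclear IκB protein. Levels were 18.8, 21.3, 19.7, and 21.4 CPM with HCME-sEVs and 17.2, 18.2, and 18.4 CPM with LME-sEVs. The nearest libraries of the groups differed by less than the counting error of about 11.04% in a library of this level. *Nfkbid* had a log2 fold change of -0.18 (SE 0.13, FDR 0.482, edgeR, exact permutation p 0.0571), with a 95% interval from a fold of 0.729 to 1.08.

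*Bcl3* (chr7:19808462-19822770, minus strand) encodes the nuclear IκB protein that binds pairs of p50 or p52. HCME-sEV libraries held 45.3, 40.3, 43.5, and 40.3 CPM, and LME-sEV libraries 46.3, 46.7, and 48.5 CPM. Every LME-sEV library was above every HCME-sEV library. The log2 fold change was 0.16 (SE 0.099, FDR 0.372, edgeR, exact permutation p 0.0571), with a 95% interval from a fold of 0.966 to 1.29. *Bcl3* lies 179 kb from *Relb* on chromosome 7, and *Relb* had a log2 fold change of -0.012. *Gm16175*, on the opposite strand of *Bcl3*, held 0 counts in every library.

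*Tnfaip3* (chr10:19000910-19015657, minus strand), the gene of A20, had the largest log2 fold change and the largest spread. Levels in HCME-sEV libraries 1 to 4 were 9.40, 23.3, 36.5, and 18.4 CPM. LME-sEV libraries 1 to 3 held 17.0, 32.6, and 35.5 CPM. The lowest and the highest of the 7 values both belonged to HCME-sEV libraries, so the LME-sEV range lay wholly inside the HCME-sEV range. Means were 21.9 ± 11.3 CPM over 4 and 28.3 ± 9.97 CPM over 3 libraries (SD). The log2 fold change was 0.41 with an SE of 0.27, an FDR of 0.403 (edgeR), and an exact permutation p of 0.543. Its 95% interval, from a fold of 0.894 to 1.98, was the widest of the 10. Without HCME-sEV library 3 the log2 fold change was 0.76 with an FDR of 0.0472 (edgeR), and without HCME-sEV library 1 it was 0.16 with an FDR of 0.727. *Tnfaip3* rested on 39 to 183 counts. HCME-sEV library 1, where *Tnfaip3* was lowest, also had the lowest summed level of the basophil and mast cell markers, 5.54 CPM. The same library was lowest for *Cd3g* (55.7 CPM), *Trac* (305 CPM), and *Cst3* (94.7 CPM). HCME-sEV library 2 had the highest basophil and mast cell sum of its group, 34.7 CPM, with *Tnfaip3* at 23.3 CPM. The part of these markers in the level of *Tnfaip3* was not tested.

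The spread within a group was compared with the spread that counting error alone would give at the same counts. *Tnfaip3* varied by a CV of 51.7% between HCME-sEV libraries and 35.2% between LME-sEV libraries, where counting alone gives 10.7% and 8.76%. *Nfkb1* varied by 17.2% and 14.4%, where counting gives 4.21% and 4.29%. These were the members with spread far above counting error in both groups. *Nfkbid* and *Nfkbie* varied by 6.24% and 10.2% between HCME-sEV libraries, below the 11.04% and 12.3% from counting, so at this depth counting error limits what can be seen of them. *Nfkbia* varied by 2.79% and 3.89%, where counting gives 1.86% and 1.87%. An SD from 3 or 4 libraries is itself imprecise.

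**Figure D3:**
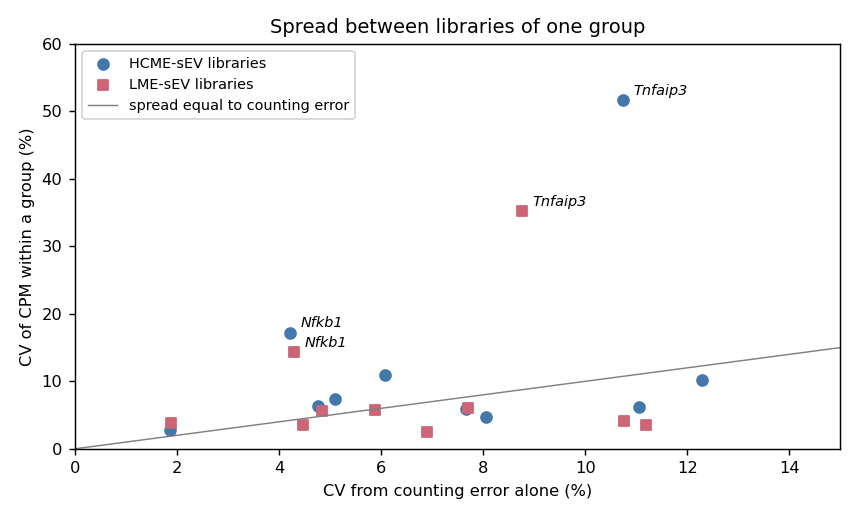
Coefficient of variation of CPM between libraries of a group (vertical, percent) against the coefficient of variation that counting error alone gives (horizontal, percent), for the 10 genes in HCME-sEV (circles) and LME-sEV (squares) libraries. The line marks equality, and *Tnfaip3*, at 51.7% and 35.2%, and *Nfkb1*, at 17.2% and 14.4%, stand furthest above it.

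By mean CPM over the 7 libraries, the order was *Nfkbia* (682), *Nfkb1* (132), *Rel* (111), *Nfkb2* (95.9), *Rela* (66.1), *Bcl3* (44.4), *Relb* (38.03), *Tnfaip3* (24.7), *Nfkbid* (19.3), and *Nfkbie* (17.7). *Nfkbia* was above *Nfkb1* in 7 of 7 libraries, and *Nfkb1* above *Rel* in 6 of 7. *Bcl3* was above *Relb* in 6 of 7. *Tnfaip3* was above *Nfkbid* in 4 of 7, and *Nfkbid* above *Nfkbie* in 4 of 7. The 5 inhibitors summed to between 792 and 833 CPM with HCME-sEVs and between 735 and 767 CPM with LME-sEVs, and most of this sum was *Nfkbia*. *Nfkbia* made up 56.4% ± 1.74 (SD, n = 4) of the sum over all 10 genes with HCME-sEVs and 54.0% ± 1.93 (SD, n = 3) with LME-sEVs.

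Likeness between members was measured as the root mean square difference of their log2 CPM over the 7 libraries, each gene centred on its own mean. The pairs that were each other's nearest member were *Nfkbia* with *Nfkbid* (0.067), *Rel* with *Relb* (0.070), and *Nfkbie* with *Bcl3* (0.078). A small difference also arises between genes that hardly vary. The SD of log2 CPM was 0.077 for *Rel* and 0.069 for *Relb*, 0.092 for *Nfkbia* and 0.115 for *Nfkbid*, and 0.169 for *Nfkbie* and 0.104 for *Bcl3*. Other genes of the table came nearer in every case, between 41 genes for *Nfkbie* and 1984 for *Tnfaip3*. The nearest gene to *Nfkbia* was *U2surp* (0.022), and that to *Nfkb1* was *Fpgs* (0.063). *Tnfaip3* stood furthest from any gene, its nearest being *Reck* at 0.15.

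Genes that act between receptors and the release of NF-κB were described from lists of pathway genes. All 6 genes of the kinase list, with the regulatory subunit gene *Ikbkg* among them, could be tested. Of these, 0 passed the threshold, with a median log2 fold change of 0.14. *Ikbkb*, the catalytic kinase of the canonical branch, had the most counts of them and held 94.2 ± 12.3 CPM in the 4 HCME-sEV and 105 ± 12.7 CPM in the 3 LME-sEV libraries (SD, FDR 0.413, edgeR). Of 19 genes between receptor and kinase, 1 passed as higher and 0 as lower (5.26%, below the 8.96% of all tested genes), with a median of -0.095. It was *Traf1*, an adaptor of TNF receptors, which rose from 169 ± 9.49 to 207 ± 8.17 CPM (SD, n = 4 and 3) by a log2 fold change of 0.29 (SE 0.077, FDR 0.0211, edgeR). The FDR of *Traf1* was 0.0575 without HCME-sEV library 2, 0.119 without LME-sEV library 2, and 0.0815 without LME-sEV library 3.

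Of 12 further brakes on the pathway, all tested, 0 passed as higher and 2 as lower (16.7%, beside 8.96% of all tested genes), with a median log2 fold change of 0.021. *Otulin*, an enzyme that removes linear ubiquitin chains, fell from 221 ± 26.1 to 155 ± 10.1 CPM (SD, n = 4 and 3), a log2 fold change of -0.51 (SE 0.091, FDR 0.00167, edgeR). *Nfkbib*, which encodes IκBβ, the third cytoplasmic retainer besides IκBα and IκBε, fell from 109 ± 8.66 to 88.5 ± 4.34 CPM, a log2 fold change of -0.30 (SE 0.088, FDR 0.0378, edgeR). The *Nfkbib* call was lost in 10 of 18 alternative settings, with FDR values of 0.10 and 0.0976 without HCME-sEV libraries 1 and 2 and of 0.132, 0.0786, and 0.148 without LME-sEV libraries 1 to 3. *Nfkbib* also overlaps *Ccer2* and *Sirt2* on the opposite strand. *Tax1bp1*, a partner of A20 and the brake with the most counts, held 264 ± 11.2 and 294 ± 10.3 CPM (log2 fold change 0.16, FDR 0.212, edgeR).

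Of 10 receptors of the TNF receptor family, 7 could be tested, 1 passed as higher and 0 as lower, with a median log2 fold change of -0.16. This was 14.3% of those tested, beside 8.96% of all tested genes. *Cd27*, a costimulatory receptor, rose from 138 ± 17.9 to 187 ± 24.8 CPM (SD, n = 4 and 3), a log2 fold change of 0.45 (SE 0.10, FDR 0.00945, edgeR), and its FDR was 0.0981 without LME-sEV library 2. This direction is opposite to that in the study's other experiments. There, *Cd27* RNA was lower in CD8+ T cells of mice injected with LME-sEVs, and CD27 was lower in a separate 48 h culture, measured as RNA or protein. *Tnfrsf9*, which encodes the costimulatory receptor 4-1BB and had the most counts of the list, held 380 ± 25.1 and 319 ± 43.2 CPM (FDR 0.0804, edgeR). Of 11 ligands, 9 could be tested, 0 passed as higher and 3 as lower (33.3%, beside 8.96% of all tested genes), with a median of -0.43. *Lta*, the gene of lymphotoxin α, fell from 62.8 ± 11.5 to 27.9 ± 3.74 CPM, a log2 fold change of -1.17 (SE 0.14, FDR 5.67e-05, edgeR). *Tnf* fell from 43.9 ± 3.70 to 31.5 ± 3.09 CPM (log2 fold change -0.48, FDR 0.0126, edgeR) and *Tnfsf8*, the ligand of CD30, from 59.7 ± 9.13 to 43.8 ± 3.47 CPM (log2 fold change -0.45, FDR 0.0209, edgeR). The FDR of *Tnf* was 0.0932 without LME-sEV library 2, and that of *Tnfsf8* lay between 0.051 and 0.122 without HCME-sEV library 2 or any single LME-sEV library.

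A list of genes known to be read by NF-κB in T cells had the most calls, and it was drawn up with earlier results of these data known. Inhibitor genes that NF-κB turns on were counted with the members and not in this list. All 20 could be tested, 1 passed as higher and 8 as lower (45%, beside 8.96% of all tested genes), with a median log2 fold change of -0.35. *Il2ra*, the high-affinity chain of the IL2 receptor, fell from 543 ± 35.6 to 357 ± 15.9 CPM (SD, n = 4 and 3), a log2 fold change of -0.61 (SE 0.076, FDR 1.06e-04, edgeR). *Cd69*, an early activation marker, fell from 65.4 ± 6.59 to 37.1 ± 1.69 CPM, a log2 fold change of -0.82 (SE 0.11, FDR 1.31e-04, edgeR). The chemokine gene *Ccl4* and the cyclin gene *Ccnd2* fell by 0.46 and 0.44 on the log2 scale (FDR 0.00113 and 0.00167, edgeR). *Ccl5* was the gene that rose, from 48.2 ± 11.3 to 75.9 ± 6.06 CPM (log2 fold change 0.66, FDR 0.00341, edgeR), and it was named after its values were seen. *Irf4*, *Il2*, *Icam1*, and *Ifng*, also named after their values were seen, were the other genes that passed as lower. Other transcription factors read these genes too, and the study itself named *Il2*, *Il2ra*, and *Lta* on these samples. Neither the share of calls nor their direction is therefore independent evidence. Over the 6 lists, 73 of 78 genes could be tested and 16 passed (21.9%, beside 8.96% of all tested genes), of which *Lta* and *Il2* were DEG, while the 10 members held 0 calls. *Il2* rested on 2 to 27 counts per library and held 0.449 to 2.13 CPM with LME-sEVs. Without LME-sEV library 2, 1 gene of the lists passed as higher and 8 as lower, and the calls over all genes numbered 393. The difference between these lists and the members was not tested.

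**Figure D4:**
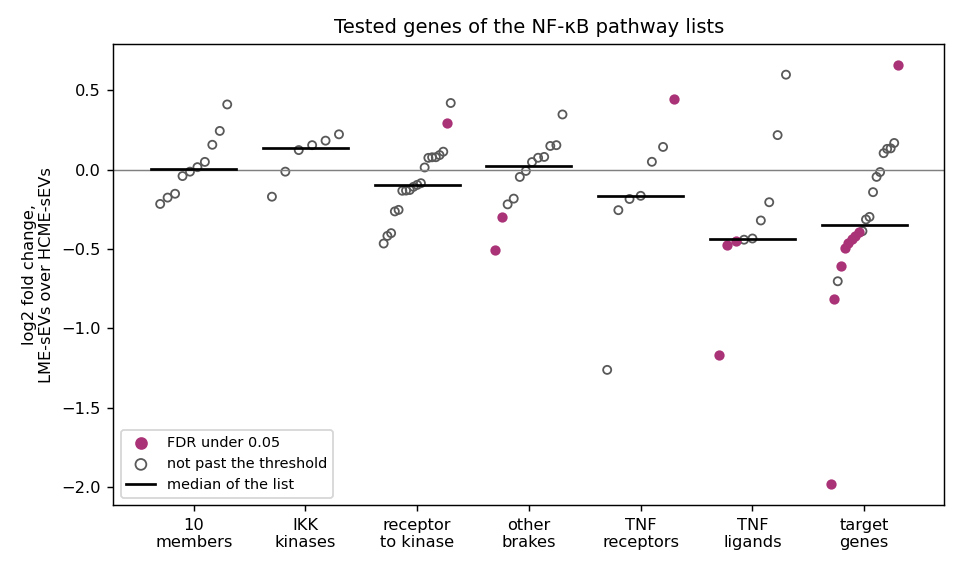
Log2 fold change, LME-sEVs over HCME-sEVs, of each tested gene of the members and of the 6 pathway lists, 1 point a gene in rising order, filled where the FDR is under 0.05, with a bar at the median of each list. The members centre on 0.0023 with no filled point, and the target genes centre on -0.35 with 9 filled points.

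The κB consensus was found in the RefSeq promoters of 5 of 15 target genes with an entry and of 0 of 5 genes of the kinase list. Members carried it in 7 of 8 cases, beside 1388 of the 27025 genes searched (5.14%). It was found for 3 of 7 further brakes and 3 of 15 genes between receptor and kinase. Of the TNF receptors and ligands, 1 of 9 and 1 of 7 carried it. The members shown with a κB match upstream of their start lay between a log2 fold change of -0.15 (*Nfkbia*) and 0.41 (*Tnfaip3*), with *Nfkb2* at 0.016, *Rel* at 0.05, and *Nfkbie* at 0.24, and none of these passed the threshold.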

How the data were processed

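The authors deposited raw counts per gene symbol: reads were trimmed with cutadapt 2.10, mapped to GRCm38 with STAR 2.5.3a, collapsed by molecular identifier with UMI-tools 1.0.0, and counted with featureCounts of Subread 2.0.0. The annotation release and strand setting are not given in the sources used here. Genes averaging 5 or more counts over the 7 libraries were tested, which is 1 reading of the minimum in the methods. Counts were tested with edgeR 4.0.16 (TMM, glmQLFit, glmQLFTest; R 4.3.3) for the difference of LME-sEVs from HCME-sEVs, without covariates and with Benjamini-Hochberg adjustment over all 12623 tested genes. The test steps were first tested on simulated data. Exact permutation tests over 35 splits were two-sided and run on the difference of mean log2 CPM. Alternatives covered count minimums, normalization, DESeq2 1.42.0, limma 3.58.1, the replicate number as a block, and leaving out each library. Members and lists were chosen with earlier results of these data known. In each list, up to 4 called genes of lowest FDR and the gene with the most counts are named. *Ccl5* and the other genes said to be so were added after their values were seen. Annotation came from GENCODE vM21 (GRCm38), promoters from RefSeq. Intervals are unadjusted, and counting errors cover counting only.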

Additional observations from a re-analysis of the deposited data

Results flagged for a closer look

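Groups of 4 HCME-sEV libraries were examined for 25 genes, the members and the named pathway genes other than *Irf4*, *Il2*, *Icam1*, and *Ifng*. The gap between the most extreme library and its nearest neighbour was divided by the range of the group, and a ratio above 0.829 was marked. Chance marks about 5% of groups. *Otulin* had a ratio of 0.889 and *Ccl4* a ratio of 0.89, in both cases because HCME-sEV library 1 was the highest, at 259 and 309 CPM. None of the 10 members was marked. Without HCME-sEV library 1 the log2 fold change of *Otulin* was -0.42 with an FDR of 0.00196 (edgeR).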

How the results depend on the processing

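Calls among the members were counted under 18 alternatives. Leaving out single libraries gave 0 to 1 members higher (*Tnfaip3* without HCME-sEV library 3) and 0 lower. With the replicate number as a block, 1 member was lower (*Nfkb1*, log2 fold change -0.29, FDR 0.0186) and *Tnfrsf9* passed (FDR 0.0151). The numbers were not taken to pair libraries, since neither the labels nor the methods say that they do. Deviations of same-numbered libraries correlated at 0.072, 0.155, and 0.027, and those of differently numbered libraries between -0.206 and 0.080. HCME-sEV library 3 and LME-sEV libraries 1 and 3 did not correlate best with their own number. These values do not settle whether libraries were paired. The block moved the calls over all genes from 1131 to 1454. No alternative made a member a DEG. Calls over all genes lay between 393 and 1293 when a library was left out (716 with HCME-sEV library 2 removed, 393 and 461 with LME-sEV libraries 2 and 3 removed) and between 850 (DESeq2) and 1454 otherwise. Pathway genes numbered 1 to 3 higher and 8 to 14 lower when a library was left out, the fewest without LME-sEV library 2, and 3 higher and 11 to 19 lower otherwise. Log2 fold changes near 0 changed sign: *Rela* was 0.0064 with library size only, and *Relb* 0.0092 with the upper quartile, 0.034 with library size only, and 0.019 with the block. With a library left out, *Nfkb2* lay between -0.033 and 0.045, *Rela* between -0.089 and 0.034, and *Relb* between -0.048 and 0.037. The other 7 members kept their direction in all 18. *Tnfaip3* had an FDR of 0.058 with no filter. The cause of these changes was not tested. Depth limits *Nfkbie* and *Nfkbid*, whose spread lay below counting error.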
